A study of Rattus norvegicus with 23 samples.

Results

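The comparison described here is the last 12 h of a differentiation time course on a stiff substrate: 3 libraries taken at 36 h against 3 taken at 24 h, 6 of the 23 libraries in all. They were found by the substrate, time and round number in the sample titles. All libraries came from adult female rat hippocampal neural stem cells labelled WT, and the groups used here were stiff at 36 h and stiff at 24 h, with soft at 36 h and soft at 24 h (3 libraries each) to set them against. Every group, also those at 0 h, carries the same treatment label, a mixed differentiation medium of DMEM-F12 and N2 with 1 uM retinoic acid and 1% FBS. Whether the 0 h cells had already met this medium is not stated. The stiffness of each substrate in units of pressure is not given in the sources used here, nor is whether a round was a separate culture or animal. P-values therefore measure only the spread between these libraries, which may be technical.

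Neural stem cells of the adult hippocampus divide and can give rise to neurons and to glia. Retinoic acid, a derivative of vitamin A that acts through nuclear receptors, is widely used to push cultured neural stem cells toward neurons, and serum favours astrocytes, so the 2 agents together allow mixed fates. As such cells differentiate, genes of the dividing stem cell are turned down while genes of the differentiated cell are turned up. Cells sense the stiffness of what they grow on through adhesions to the matrix and the tension of the actin cytoskeleton. The series title names eEF1A1, the elongation factor that brings aminoacyl-tRNA to the ribosome, as part of that sensing.

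Transcripts were counted from tags near their 3' ends (QuantSeq FWD), per Ensembl rat gene identifier. Of 32883 identifiers, 0 matched the reference table of gene names, so neither that elongation factor nor any marker, pathway or cell type list was analysed here, and genes are described by identifier and by group. For the same reason the label neural stem cell was not checked against markers, and no promoter or protein could be set beside a result. The table lists 18319 identifiers with at least 1 count, and 11857 passed the filter on low counts and were tested.

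Total counts did not overlap between the times. The stiff 36 h libraries held 3929521, 5203157 and 3536182 counts in rounds 1, 2 and 3, and the stiff 24 h libraries 6566822, 5255181 and 6531688. Genes with at least 1 count numbered 13667 to 14167 at 36 h and 14116 to 14547 at 24 h. With each of the 6 libraries thinned at random to 3536182 counts, these ranges overlapped, at 13641 to 13765 genes at 36 h and 13723 to 13862 at 24 h. The 100 most abundant genes of each library took 23.1% to 24.1% of its counts at 36 h and 23.1% to 23.6% at 24 h. The most abundant gene averaged 21888 CPM (counts scaled to a common total) at 36 h and 18654 CPM at 24 h on stiff, and its difference did not pass the test (log2 fold change 0.23, edgeR, adjusted p = 0.366).

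Between 24 h and 36 h on stiff, 1173 genes changed, 9.89% of the 11857 tested. Of these, 546 rose (4.6% of those tested) and 627 fell (5.29%). A gene was called where edgeR's quasi-likelihood test gave a Benjamini-Hochberg adjusted p under 0.05 over all tested genes. Before adjustment 2661 genes (22.4%) had p under 0.05, where 593 are expected with no difference. The median log2 fold change of all tested genes was 0.00. DESeq2 called 558 risen and 667 fallen genes, of which 529 and 612 were among the 546 and 627. These are bulk libraries, in which fewer cells of a type and less RNA per cell cannot be told apart.

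Most changes were moderate in both directions. The risen genes had a median log2 fold change of 0.54, with the middle 50% of them between 0.39 and 0.75. The fallen genes had a median of -0.50, with the middle 50% between -0.73 and -0.38. A change of less than 1.5-fold was seen in 310 of the risen and 391 of the fallen genes. The change exceeded 2-fold in 71 risen genes, 13% of that list, and in 63 fallen genes, 10% of theirs. It exceeded 4-fold in 8 risen and 5 fallen genes.

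**Figure D1:**
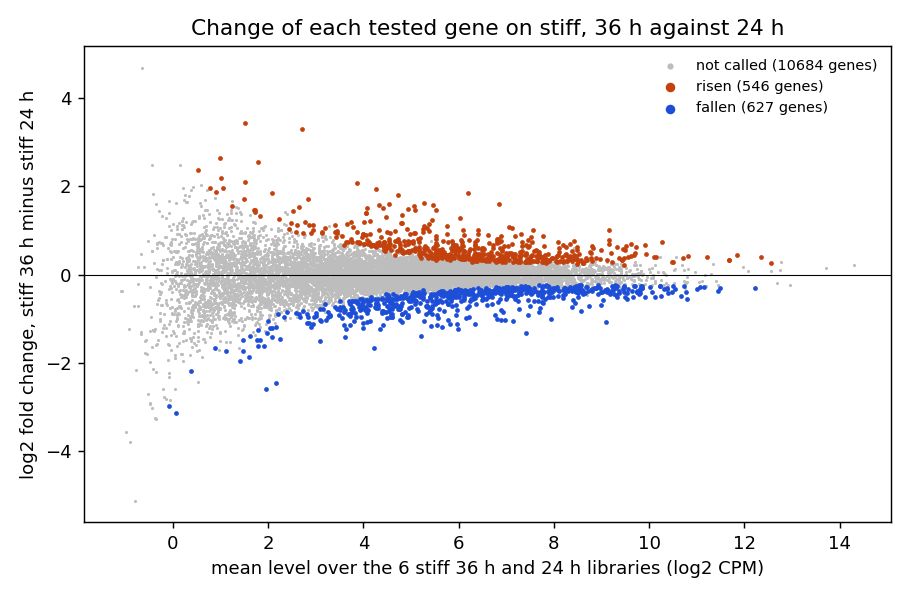
Log2 fold change of each of the 11857 tested genes, stiff 36 h minus stiff 24 h (vertical axis), against its mean level over the 6 libraries in log2 CPM (horizontal axis). The 546 risen genes lie above 0 and the 627 fallen genes below, and at low levels the called genes are those with large fold changes.

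The genes called were more abundant than most. Their median level over the 6 libraries was 67.8 CPM, against 25.7 CPM for all tested genes. Of the 25% of tested genes with the lowest levels, up to 7.69 CPM, 27 rose and 35 fell, or 2.09%. Of the 25% with the highest, above 70.4 CPM, 274 rose and 295 fell, or 19.2%. Precision rose with level too: the median standard error of the log2 fold change was 0.46 in the lowest 25% and 0.10 in the highest. Sign aside, the calls had a median log2 fold change of 1.45 in the lowest 25% and 0.39 in the highest.

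**Figure D2:**
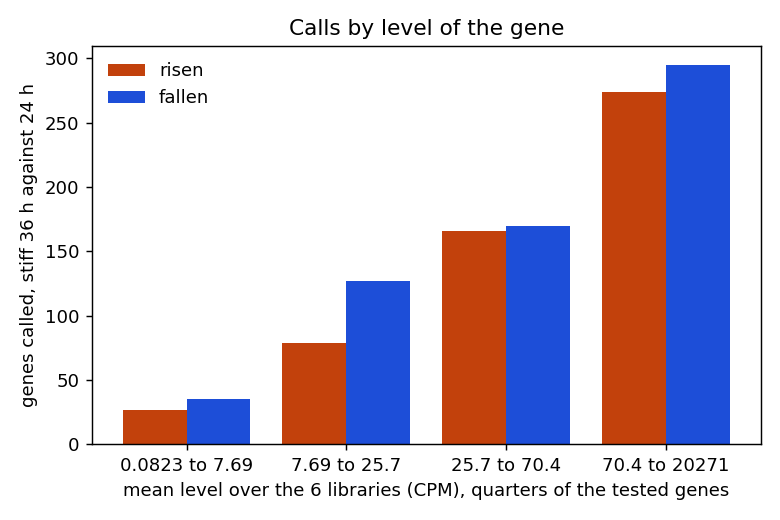
Number of genes risen and fallen on stiff, 36 h against 24 h (vertical axis), in 4 classes of the 11857 tested genes by mean CPM over the 6 libraries, each of 25% (horizontal axis). Calls increased with level in both directions, from 27 risen and 35 fallen in the lowest class to 274 and 295 in the highest.

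The 13 genes that changed more than 4-fold were mostly rare transcripts. The 8 that rose averaged 1.39 to 18.2 CPM and the 5 that fell 0.76 to 6.61 CPM, so most of these fold changes rest on few counts. The most abundant of the 5 had 153, 4 and 66 counts at 24 h and 8, 8 and 8 at 36 h. Its 24 h libraries thus spread widely, and the groups overlapped. The best measured of the 8 had 25.8, 34.7 and 27.7 CPM in the 36 h libraries and 5.16, 6.95 and 8.72 CPM in the 24 h libraries of rounds 1 to 3. All 3 libraries at 36 h lay above all 3 at 24 h, with a log2 fold change of 2.08 (SE 0.33, edgeR, adjusted p = 4.56e-05). The steepest rise, a log2 fold change of 3.45 (SE 0.53), stood on 26, 42 and 32 counts at 36 h and 9, 2 and 2 counts at 24 h.

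No called gene was at 0 in every library of one time and counted in every library of the other. Among all listed genes, 24 had 0 counts in the 3 stiff 24 h libraries and at least 1 in each stiff 36 h library, and none of them summed to more than 10 counts at 36 h. The reverse, at least 1 count in each library at 24 h and 0 at 36 h, was seen in 81 genes, which summed to at most 18 counts at 24 h, where the libraries were deeper. Of these 24 and 81 genes, 1 of each passed the filter and 0 were called by edgeR. A count of 0 in 3 libraries allows up to 3 counts over the group, for counting error only.

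Of the 4 identifiers named here, ENSRNOG00000011130 had the smallest p of all. It had 137, 153 and 127 CPM in the stiff 36 h libraries of rounds 1, 2 and 3, against 37.8, 36.4 and 40.8 CPM in the stiff 24 h libraries. The lowest 36 h library was thus far above the highest 24 h library, and the groups did not overlap. The level was 3.63-fold higher at 36 h (log2 fold change 1.86, SE 0.16, edgeR, adjusted p = 5.51e-09). Across the course on stiff its mean was 0.64 ± 0.55, 4.36 ± 0.91, 38.3 ± 2.22 and 139 ± 13.1 CPM at 0, 12, 24 and 36 h (SD, n = 3 each). Each later time was above the one before it. On soft it was at 155, 150 and 139 CPM at 36 h, against 26.9, 43.3 and 40.8 CPM at 24 h, a log2 fold change of 1.99 (SE 0.16).

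ENSRNOG00000004328 was the other risen gene named. Its levels were 84.9, 73.0 and 69.9 CPM in the stiff 36 h libraries, against 25.3, 28.7 and 28.7 CPM in those of 24 h. The groups did not overlap, and the level was 2.75-fold higher at 36 h (log2 fold change 1.46, SE 0.13, edgeR, adjusted p = 1.16e-08). On stiff the gene stood at 12.2 ± 1.5, 14.9 ± 2.89, 27.6 ± 1.96 and 75.9 ± 7.94 CPM at 0, 12, 24 and 36 h (SD, n = 3 each). The widest gap in CPM between neighbouring times was the last. On soft it was 2.28-fold higher at 36 h than at 24 h, with 66.7, 68.2 and 71.4 CPM against 31.9, 30.2 and 28.1 CPM.

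Of the fallen genes, ENSRNOG00000050819 had the smallest p. It had 298, 454 and 379 CPM in the stiff 36 h libraries of rounds 1, 2 and 3, against 741, 812 and 843 CPM in the stiff 24 h libraries. Every 36 h library lay below every 24 h library, and the level at 36 h was 0.47 of that at 24 h (log2 fold change -1.08, SE 0.12, edgeR, adjusted p = 1.68e-07). Its course on stiff went through 1400 ± 154, 1899 ± 125, 799 ± 52.6 and 377 ± 77.9 CPM at 0, 12, 24 and 36 h (SD, n = 3 each), so its highest mean was at 12 h and its lowest at 36 h. On soft the fold change from 24 h to 36 h was -1.02 on the log2 scale (SE 0.12).

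ENSRNOG00000003802 also had its highest stiff mean at 12 h and its lowest at 36 h, at lower levels. Its levels were 96.2, 146 and 86.3 CPM in the stiff 36 h libraries, against 279, 261 and 287 CPM in those of 24 h. The groups did not overlap (log2 fold change -1.32, SE 0.14, edgeR, adjusted p = 1.87e-07). On stiff the mean was 328 ± 24.6, 464 ± 31.3, 276 ± 13.2 and 109 ± 31.7 CPM at 0, 12, 24 and 36 h (SD, n = 3 each). On soft 99.1, 134 and 104 CPM were measured at 36 h, against 308, 274 and 219 CPM at 24 h. In each of the fallen pair the round 2 library was the highest of the 3 at 36 h on both substrates.

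**Figure D3:**
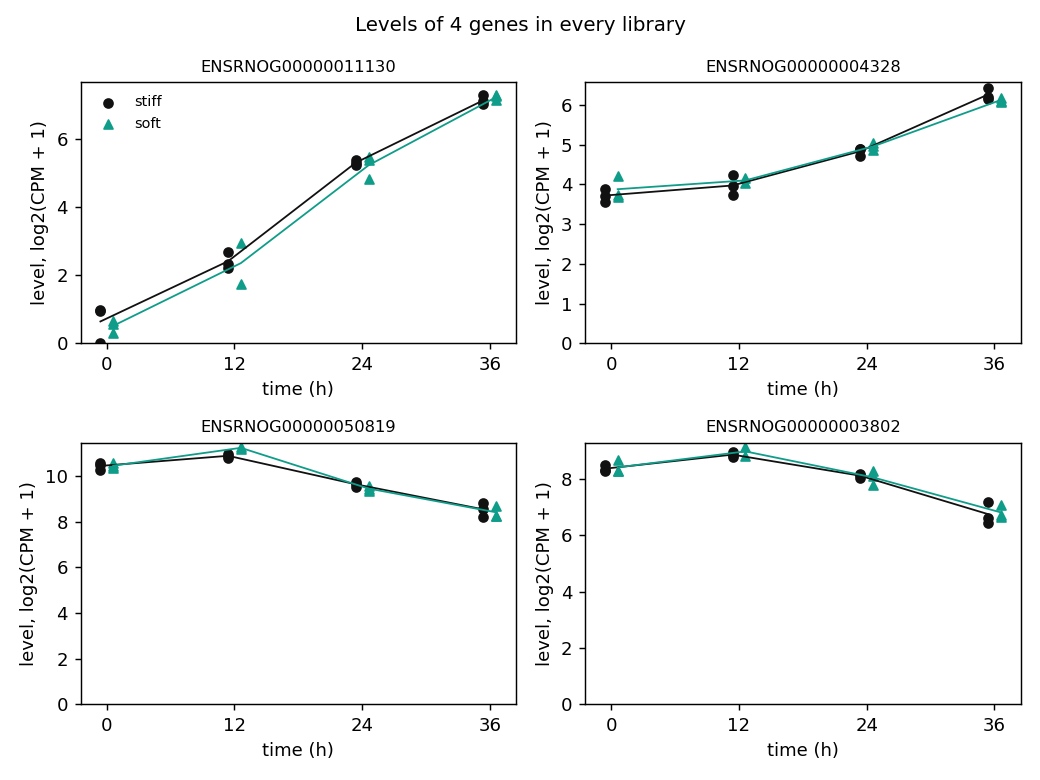
Level of the 4 named genes in each of the 23 libraries, as log2(CPM + 1) (vertical axis), at 0, 12, 24 and 36 h (horizontal axis), with circles for stiff, triangles for soft and lines through the group means. At 36 h every stiff library lies above every stiff 24 h library for the 2 risen genes and below for the 2 fallen genes, and the soft libraries of 36 h lie likewise above or below those of 24 h. Of all tested genes, 12.1% lay wholly above in this way on soft and 12.2% wholly below.

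The 3 rounds gave the same direction for nearly all called genes. Taking the difference in log2 CPM between the 36 h and 24 h libraries of each round, 541 of the 546 risen genes were higher at 36 h in all 3 rounds, and 621 of the 627 fallen genes were lower. Of all tested genes, 23% were higher and 22.4% lower in all 3 rounds. The called genes were chosen on these libraries, so this describes them and is no separate evidence. The median differences of the risen genes were 0.54, 0.57 and 0.47 in rounds 1, 2 and 3, and those of the fallen genes -0.56, -0.52 and -0.40, the smallest in round 3 for both. Over all tested genes, which are not independent replicates, the differences of 2 rounds correlated with Pearson's r of 0.25 to 0.38. The 36 h libraries lay above all 24 h libraries in 530 of the risen genes and below all of them in 598 of the fallen genes, while 14.1% of all tested genes lay above and 13.9% below.

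A pair of libraries weighed most on the count. On the first principal component of the 6 libraries, which held 38.6% of the variance, the 36 h libraries scored 31.1, 13.1 and 14.95 and the 24 h libraries -14.2, -28.7 and -16.2 in rounds 1 to 3. Round 1 at 36 h and round 2 at 24 h were thus the farthest from the other time. Without the round 1 library at 36 h, 287 genes were called risen and 253 fallen, of which 281 and 248 were among the original calls. Without the round 2 library at 24 h the counts were 287 and 313, with 277 and 310 among the original calls. With every library of the series thinned to the smallest total, 302 genes rose and 420 fell, of which 271 and 380 were among the original calls.

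The called genes, 9.89% of those tested and more abundant than most, held a sizeable share of all counts. The 546 risen genes made up 12.6%, 11.9% and 12.0% of all counts in the stiff 36 h libraries, against 9.01%, 8.56% and 9.04% in the stiff 24 h libraries. The 627 fallen genes made up 10.7%, 11.6% and 11.8% at 36 h, against 15.05%, 15.7% and 14.5% at 24 h. At 36 h the 2 lists had similar shares, and at 24 h different ones. The lists were chosen on these libraries, so the direction of each shift follows from the choice and is no separate evidence. The gain was spread over many genes: the 10 genes with the largest gain in CPM made up 24.2% of it, and 67 risen genes gained more than 100 CPM each. The loss was spread similarly, with 16% of it in 10 genes and 97 fallen genes losing more than 100 CPM.

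Among the called genes, the largest single gain and loss in CPM were small as fold changes. The risen gene with the largest gain had 5722, 5787 and 6360 CPM at 36 h, against 4904, 4304 and 4417 CPM at 24 h (log2 fold change 0.39, SE 0.09). The fallen gene with the largest loss had 4134, 4305 and 4366 CPM at 36 h, against 5337, 5515 and 4977 CPM at 24 h (log2 fold change -0.31, SE 0.07). In both the groups did not overlap. On soft the log2 fold changes of these genes from 24 h to 36 h were 0.23 and -0.16. Neither was called there (edgeR, adjusted p = 0.124 and 0.145).

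The soft substrate went through the same 12 h in libraries of its own, which were not in the contrast that chose the genes, though all 23 libraries set the filter and the estimated spread. There 553 genes rose and 514 fell, 9% of those tested. Of the 1173 genes called on stiff, 632 were called in the same direction on soft, 295 rising and 337 falling, and 0 were called in opposite directions. These 632 are 53.9% of the stiff calls and 59.2% of the soft calls. For comparison, 4.66% of all tested genes rose on soft and 4.33% fell. These rates are over genes of all levels, while the genes called on stiff were more abundant than most. No rate for genes of like level was computed. No library was shared between the substrates, while the round numbers and the medium were.

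In the lists chosen on stiff, the median changes on soft went the same way and were smaller. The 546 genes risen on stiff had a median log2 fold change of 0.54 on stiff and 0.44 on soft, and 533 of them (97.6%) were higher at 36 h on soft, against 50.3% of all tested genes. The 627 genes fallen on stiff had a median of -0.50 on stiff and -0.38 on soft, and 611 of them (97.4%) were lower on soft, against 49.7% of all tested genes. Choosing genes on stiff enlarges the stiff medians. Read in the other direction, the 553 genes risen on soft had a median of 0.44 on stiff and 0.61 on soft, and the 514 fallen on soft -0.42 on stiff and -0.51 on soft. Of the 71 genes that rose more than 2-fold on stiff, 69 were higher on soft. Their median log2 fold change was 1.23 on soft and 1.39 on stiff. Of the 63 that fell more than 2-fold, 62 were lower on soft, with a median of -0.87 there and -1.19 on stiff.

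**Figure D4:**
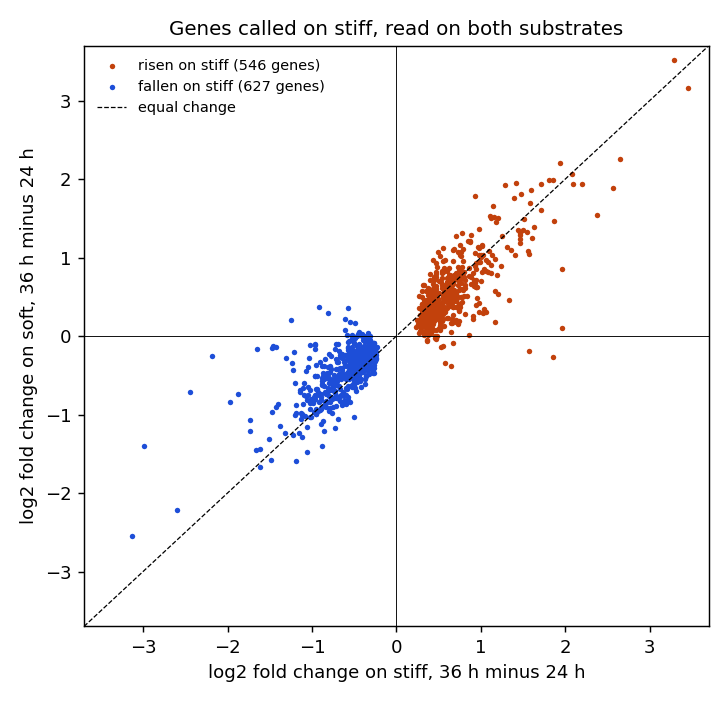
Log2 fold change from 24 h to 36 h on soft (vertical axis) against that on stiff (horizontal axis) for the 1173 genes called on stiff, with a dashed line where both are equal. Of the risen genes 533 of 546 lie above 0 on soft, and of the fallen genes 611 of 627 lie below 0.

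A difference of the step between substrates was tested directly and 0 genes passed. In edgeR's quasi-likelihood test of the stiff step minus the soft step, the smallest Benjamini-Hochberg adjusted p was 0.19. Before adjustment 439 genes (3.7%) had p under 0.05, where 593 are expected with no difference. DESeq2 called 0 genes higher and 1 lower on stiff. With the round as a block in edgeR, 574 genes had p under 0.05 before adjustment, and 1 gene was called higher and 1 lower. The 541 genes called on stiff and not on soft therefore were not shown to be particular to stiff: their median log2 change, sign aside, was 0.46 on stiff, and on soft 512 of them had the same sign, with a median of 0.24 in the stiff direction over all 541.

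The test leaves room for differences between substrates, for many genes beyond 2-fold. The 95% interval of the difference in step lay within 1.5-fold either way for 696 of the 1173 genes called on stiff (59.3%) and within 2-fold for 1031 (87.9%). For the 134 genes that changed more than 2-fold on stiff it lay within 2-fold in 52 (38.8%). Over all 11857 tested genes it lay within 2-fold in 8316 (70.1%). For ENSRNOG00000011130 the interval ran from -0.59 to 0.32 on the log2 scale, and for ENSRNOG00000004328 from -0.11 to 0.66. For ENSRNOG00000050819 it ran from -0.39 to 0.27, and for ENSRNOG00000003802 from -0.50 to 0.33.

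The genes called in this last step had a course behind them, which can be read in the soft libraries, since these were not in the contrast that chose the genes. The 546 risen genes had median levels at 0, 12, 24 and 36 h of 37.1, 39.8, 58.1 and 84.1 CPM on stiff and of 36.9, 40.5, 60.7 and 83.9 CPM on soft. Between 0 h and 12 h on soft they were about evenly split, with 54% higher at 12 h against 52.1% of all tested genes. By 24 h, 502 of the 546 (91.9%) were above their 12 h level, against 50.6% of all tested genes. The soft mean at 12 h rests on 2 libraries and the others on 3.

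The 627 fallen genes began at a higher level. Their medians at 0, 12, 24 and 36 h were 125, 130, 74.4 and 51.3 CPM on stiff and 125, 120, 70.1 and 56.0 CPM on soft. On soft 55.5% were higher at 12 h than at 0 h, and 546 of the 627 (87.1%) were lower at 24 h than at 12 h, against 49.4% of all tested genes. At 36 h 596 (95.1%) were below their 0 h level on soft, against 48.8% of all tested genes, as 511 of the 546 risen genes (93.6%) were above theirs.

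A minority had gone the other way before 24 h. On soft 94 of the 546 risen genes were not above their 0 h level at 24 h, and 92 of these 94 were higher at 36 h than at 24 h. Of the 627 fallen genes 70 were above their 0 h level at 24 h, and 70 of these 70 were lower at 36 h than at 24 h. Of all tested genes 5870 were not above their 0 h level at 24 h, and 2595 of these were higher at 36 h. The other 5987 were above it, and 2617 of these were lower at 36 h. These splits were made on soft means alone and were not tested. The soft 24 h mean enters both the split and the later change.

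As shares of each library, the lists moved mainly after 12 h on both substrates. The risen genes on stiff held 5.7% ± 0.09, 5.86% ± 0.23, 8.87% ± 0.27 and 12.1% ± 0.39 of counts at 0, 12, 24 and 36 h (SD, n = 3 each). The fallen genes held 19.7% ± 0.27, 19.5% ± 0.37, 15.1% ± 0.60 and 11.4% ± 0.55 at the same times. On stiff the mean shares at 0 h and 12 h differed by less than the SD of the 12 h libraries. On soft the risen genes held 5.71% ± 0.06 at 0 h (SD, n = 3) and 5.9% ± 0.19 at 12 h (SD, n = 2), and the fallen genes 19.9% ± 0.27 and 19.4% ± 0.09, a gap wider than the 12 h SD for the fallen genes. On soft the risen genes held 12.5%, 11.8% and 11.8% at 36 h, against 9.13%, 8.83% and 9.38% at 24 h, and the groups did not overlap. The fallen genes held 10.96%, 12.0% and 11.6% at 36 h on soft, against 14.7%, 15.2% and 14.5% at 24 h, again with no overlap. A two-sided exact permutation test of 3 against 3 libraries gave p = 0.1 for each list on soft, the smallest value this design allows.

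**Figure D5:**
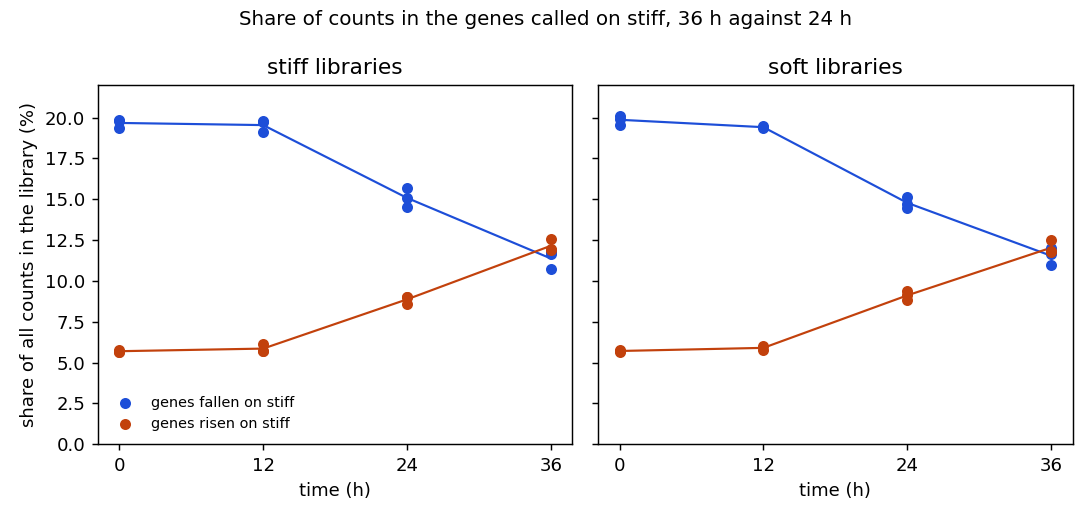
Share of all counts of each library (vertical axis, percent) held by the 546 genes risen and the 627 genes fallen on stiff between 24 h and 36 h, against time (horizontal axis), in stiff and in soft libraries, with lines through the group means. On both substrates the shares at 0 h and 12 h lie close together, and the 2 lists come to similar shares by 36 h. The lists were chosen on the stiff 24 h and 36 h libraries, so the direction of their shift there follows from the choice.

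Beside the step before it, this step was the smaller by its counts. From 24 h to 36 h on stiff the median log2 fold change, sign aside, was 0.51 among the called genes and 0.20 among all tested genes. From 12 h to 24 h the same medians were 0.61 and 0.31, and 1717 genes rose and 1913 fell, 30.6% of those tested. Both steps use the stiff 24 h libraries, the stiff 12 h libraries were shallower than those, and the difference in size was not tested. ENSRNOG00000011130 had a log2 fold change of 1.86 in the later step and 3.18 (SE 0.26) in the earlier. ENSRNOG00000004328 had 1.46 in the later step and 0.86 (SE 0.16) in the earlier. For ENSRNOG00000050819 the later value was -1.08 and the earlier -1.25 (SE 0.11), and for ENSRNOG00000003802 -1.32 and -0.75 (SE 0.14). Of these 4 genes, 2 thus had the larger change in the later step and 2 in the earlier.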

How the data were processed

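The authors deposited raw whole-number counts, 1 column for each of 23 libraries and 1 line for each Ensembl rat gene identifier. FastQC, HISAT2 2.1.0 and HTSeq on rat build rn6 are the tools listed, per the submitters' processing notes. Which annotation release, strand setting and trimming were used is not given in the sources used here. Reads of overlapping genes or of near-identical gene copies may be split between them. Because tags lie near 3' ends, transcript length has little influence on a count.

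Counts were fitted with edgeR 4.0.16 (R 4.3.3): 8 means of substrate and time over all 23 libraries, TMM scaling factors, the filterByExpr filter (minimum count 10, minimum total 15) and the quasi-likelihood test, with Benjamini-Hochberg adjustment over 11857 genes and a threshold of 0.05. Standard errors are those implied by the F statistic. CPM use TMM-scaled totals. Log2 CPM by library used a prior count of 2. Replicates of the 4 groups at 24 h and 36 h differed beyond sampling noise (chi-square per degree of freedom 3.1 to 9.11, genes of 20 or more counts), and each library counted as 1 sample. Figures used matplotlib 3.10.9.

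The rule for named genes took, with no gene names, the 2 risen and 2 fallen identifiers of smallest p with the same sign in all 3 rounds. The 38 gene lists drawn up could not be matched. The comparison, the lists and the tests were chosen with earlier results of these data known. Alternatives were other scalings, other filters, DESeq2 1.42.0, a round block, the compared groups alone, each library left out, and, added after the data were seen, unscaled totals and thinning.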

Additional observations from a re-analysis of the deposited data

How the results depend on the processing

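For the stiff step, leaving out 1 library at a time gave 287 to 473 risen and 253 to 547 fallen genes, and thinning to the smallest total gave 302 risen. RLE, upper-quartile and unscaled factors, no filter, a filter at 5 CPM in 3 or more libraries, DESeq2 and the compared groups alone kept both counts within 1.5 times. For the soft step, 1 library left out gave 297 to 455 fallen genes (fewest without soft 36 h replicate 1), the compared groups alone 340 fallen, and thinning 300 risen. For the difference of steps, no filter gave 3 genes higher and 11 lower on stiff, DESeq2 1 lower, and leaving out 1 library 0 to 1 higher (1 without soft 36 h replicate 3) and 0 to 2 lower (2 without soft 24 h replicate 2). The cause of these shifts was not tested, except that thinning leaves fewer counts and leaving out a library fewer samples. The step from 12 h to 24 h on stiff stayed within 1.5 times in all 15 alternatives. Each of the 4 named genes kept its direction and its call in the 15 alternatives of the stiff 24 h to 36 h step, and its adjusted p by edgeR or DESeq2 was at most 1.06e-05.

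With the round as a block, 741 genes rose and 825 fell on stiff, and 1 gene was higher and 1 lower in the difference of steps, where 574 genes had p under 0.05 before adjustment. The labels do not say what a round shares, and the data did not settle whether libraries of a round are paired. Same-numbered stiff 36 h and 24 h libraries deviated from their group means with correlations of 0.08, 0.07 and -0.01 in rounds 1 to 3. Between stiff and soft libraries of 36 h, the same correlation was 0.07, 0.02 and 0.04. For those of 24 h it was 0.13, 0.12 and 0.04, so every stiff-soft value was small but positive. Of the 3 stiff 36 h libraries, 2 correlated best with their own number. The main fit had no term for the round, and adding it raised the calls on stiff in both directions. Alternatives for the gene lists were not run, since no list could be matched. Depth limits the 25% of genes with the lowest levels, where the median standard error was 0.46 on the log2 scale.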
